A study of Mus musculus with 6 samples.

Results

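Complement is a cascade of plasma and membrane proteins that tags cells and particles and can open pores in membranes. In the classical pathway the proteases C1r and C1s cleave C4 and C2, and in the alternative pathway factor D cleaves factor B, and both routes build convertases that cut C3. Factor I, with its cofactors, breaks down deposited C3b and C4b, while CD55 takes convertases apart and CD59 blocks the pore. Liver is the main source of the circulating proteins, and many other cells, tumour cells among them, make their own.

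Described here are 9 complement genes, C3, C4b, Cfb, Cfd, Cfi, C1ra, C1s1, Cd55 and Cd59a, taken by symbol from the 49523 genes of the table. The samples were EO771 cells, a mouse mammary carcinoma line, in 3 libraries labelled cancer stem cells (CSC) and 3 labelled non-CSC, with no treatment, time or genetic change given for either group. How the CSC were isolated, and whether replicates are separate cultures, is not stated in the labels, so any p-value measures only the spread between these libraries, which may be technical. The 9 genes were proposed with earlier results of the same comparison in view. Their CSC and non-CSC values are therefore given as a description, without a test.

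The libraries held 27099879 to 35971131 counts, and levels are CPM, a gene's count relative to its library size scaled by TMM, a factor that offsets differences in composition between libraries. The mammary epithelial genes Krt8, Krt18, Krt19 and Krt7 were between 501 and 1267 CPM in both group means, with Krt7, Krt8 and Krt19 higher in CSC, whereas Epcam, an epithelial adhesion gene, fell from 21.3 to 10.3 CPM and Cdh1, which encodes E-cadherin, was at 0.952 CPM in non-CSC and 0.752 CPM in CSC. Of 10 macrophage and monocyte markers, Adgre1, Tyrobp and C1qa had no count in any library and Ptprc had 1 to 6 counts. Their summed level was 47.8 to 50.8 CPM over non-CSC libraries, against 65.4 to 67.8 CPM in CSC. The summed level of 7 fibroblast markers was 555 to 589 CPM in non-CSC and 1196 to 1243 CPM in CSC, most of it from the proteoglycan gene Dcn, with Lum at 0 in all libraries. Of 7 hepatocyte markers, Ttr and Serpina1a had no count, and the summed level, nearly all of it Alb, was 179 to 193 CPM in non-CSC and 175 to 178 CPM in CSC. The part of other cell types in the complement values was not tested.

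In CPM, 7 of the 9 genes were higher in every CSC library than in every non-CSC library, and none was lower in all. Among the 7 genes with enough counts to be fitted, 6 were higher in this way. Of all 17630 genes with enough counts to be fitted, 69.3% had groups that did not overlap, 35% with CSC higher and 34.3% with CSC lower. C3, the gene of the central component, was 6.93-fold higher in CSC, Cfi 4.06-fold, C1s1 2.77-fold and C1ra 2.41-fold, as ratios of the group means. Cfb and C4b were 1.78-fold and 1.53-fold higher. In such bulk libraries, more cells that express a gene and more RNA per cell cannot be told apart. Cfd was higher from very few counts, Cd59a overlapped between the groups, and Cd55 was practically without reads. The median log2 difference of the 7 genes that were fitted was 1.27, beside 0.01 for all fitted genes. Cfd and Cd55 did not pass the filter on low counts.

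**Figure D1:**
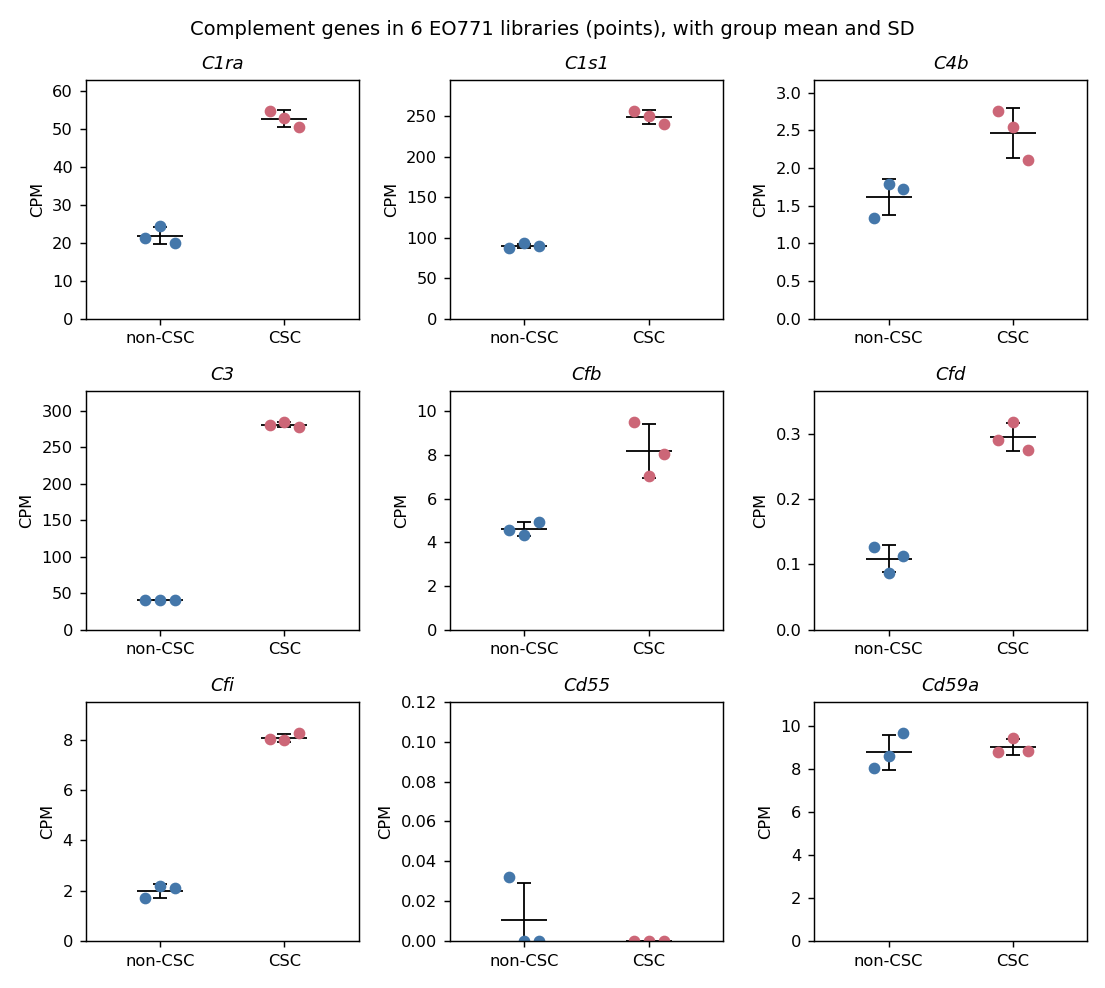
Level in CPM (vertical axis, linear from 0) of the 9 complement genes in the 3 non-CSC libraries (blue) and the 3 CSC libraries (red), with group mean and SD as black bars. C3, C1ra, C1s1, C4b, Cfb, Cfd and Cfi have all CSC points above all non-CSC points, Cd59a overlaps, and Cd55 has 1 count in 1 library.

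C1ra and C1s1 encode the proteases that form the catalytic core of the first component. C1s1 had 87.5, 93.1 and 89.3 CPM in non-CSC replicates 1 to 3 and 257, 250.4 and 240 CPM in CSC replicates 1 to 3, so the lowest CSC value was far above the highest non-CSC value. Its log2 difference, CSC minus non-CSC, was 1.47 with a standard error of 0.039. C1ra had 21.4, 24.5 and 19.98 CPM in non-CSC and 54.8, 53.0 and 50.5 CPM in CSC. Its log2 difference was 1.27 with a standard error of 0.061. Per base of exon, C1s1 had 3.93 ± 0.321 times the counts of C1ra in non-CSC and 4.49 ± 0.0353 times in CSC (SD, n = 3 each), and the 3 CSC ratios, 4.46 to 4.53, lay above the 3 non-CSC ratios, 3.62 to 4.26. No gene of the C1q subunits, which recognise antibody and carry the proteases, had a count in any library: C1qa, C1qb and C1qc were all at 0, where 3 counts would be 0.0849 to 0.109 CPM.

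Both protease genes lie on chromosome 6 in a group of related genes. In GRCm38 (GENCODE M21 annotation) C1ra spans chr6:124512405-124523443 on the plus strand and C1s1 chr6:124530345-124542359 on the minus strand. Their copies C1rb and C1s2 follow, and C1rl, a C1r-like protease gene, lies just before C1ra. All 3 of these neighbours rose. C1rb had 26 to 34 counts per non-CSC library and 105 to 144 per CSC library, a log2 difference of 2.22 (edgeR adjusted p = 2.77e-11), C1s2 went up from 3.69 ± 0.259 CPM to 14.5 ± 0.850 CPM (SD, n = 3 each), and C1rl rose by 0.99 on the log2 scale. Of all genes fitted, 33.4% were higher in CSC at an adjusted p under 0.05. The copies resemble the originals: 48.0% of the 50-base words of the longest C1ra transcript also occur in C1rb, and 24.3% of those of C1s1 occur in C1s2. How reads were shared among them is not stated in the labels, so the split within each pair is uncertain. Gm16567, on the opposite strand, shares 18.4% of the exon bases of C1s1, and without the strand setting reads from those bases cannot be told apart. Counts of C1rb were 3.68% to 5.07% of those of C1ra in non-CSC and 6.95% to 9.84% in CSC. The 30 fitted genes nearest to C1s1 in gene order, these relatives included, had a median log2 difference of 0.06, and 3 of them were above C1s1.

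C4b encodes the fourth component, the substrate of C1s. It had 42, 62 and 61 counts in non-CSC against 76, 72 and 61 in CSC. The raw counts of the groups met at 61 and 62, and only after scaling, at 1.34, 1.79 and 1.73 CPM against 2.76, 2.54 and 2.10 CPM, were they apart. The log2 difference was 0.60 with a standard error of 0.155. C4b lies at chr17:34728380-34743882 (GRCm38, minus strand), and its copy C4a shares 35.2% of its words. C4a had 17 to 32 counts in non-CSC and 19 to 25 in CSC, and did not pass the test (log2 difference 0.21, edgeR adjusted p = 0.476). C2, which encodes the other substrate of C1s, fell from 33.2 to 23.8 CPM, a log2 difference of -0.48 (edgeR adjusted p = 5.89e-06).

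C3 is the component on which all pathways meet. It had 1284, 1395 and 1432 counts in non-CSC against 7734, 8049 and 8052 in CSC. In CPM these were 40.9, 40.2 and 40.5 against 281, 284 and 278, with a spread within either group that was small beside the gap. The log2 difference was 2.79 with a standard error of 0.038, and 246 of the 17630 fitted genes, 1.40%, had a larger one. C3 made up 23.0% to 24.7% of the counts of the 9 genes in non-CSC and 45.2% to 46.6% in CSC. The share of C1s1 went the other way, from 52.8% to 53.2% in non-CSC to 40.3% to 41.3% in CSC. Together the 9 genes took 166 to 175 CPM in non-CSC and 595 to 622 CPM in CSC, and no 50-base word of the longest C3 transcript occurs in another gene.

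C3 spans chr17:57203970-57228136 (GRCm38, minus strand). The 200 bases before its annotated start are shown because C3 had the largest difference of the 9, beside those of C1s1, which had the highest level per length, and of Cd59a, whose groups overlapped. They come from the RefSeq promoter table of GRCm38.p6, which held 6 of the 9 genes, and each reads 5′ to 3′ on its gene's strand. The windows are chr17:57228137-57228336 (minus strand), chr6:124542360-124542559 (minus strand, the first of 2 C1s1 entries) and chr2:104095601-104095800 (plus strand). Capitals mark matches to any of 6 motifs searched on both strands.
C3: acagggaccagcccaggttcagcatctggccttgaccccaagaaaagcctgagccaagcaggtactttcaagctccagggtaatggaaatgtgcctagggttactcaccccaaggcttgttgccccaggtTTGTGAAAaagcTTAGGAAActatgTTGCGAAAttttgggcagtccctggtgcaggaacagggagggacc
C1s1: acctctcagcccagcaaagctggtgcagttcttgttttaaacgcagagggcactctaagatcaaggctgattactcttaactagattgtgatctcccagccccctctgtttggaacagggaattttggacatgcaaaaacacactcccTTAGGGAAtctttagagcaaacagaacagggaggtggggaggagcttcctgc
Cd59a: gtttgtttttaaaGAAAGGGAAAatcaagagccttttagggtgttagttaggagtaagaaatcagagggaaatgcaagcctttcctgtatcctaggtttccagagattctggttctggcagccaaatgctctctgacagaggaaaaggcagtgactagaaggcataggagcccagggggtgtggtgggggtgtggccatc

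The motifs were TATAAA, the kappaB consensus, GAAANNGAAA (core of the interferon response element), TTNNGNAA (core bound by C/EBP factors), TTCNNNGAA (STAT element) and TGACTCA (AP-1 element). The C3 window held TTNNGNAA at 3 places, starting 70, 58 and 45 bases before the start, the last on both strands. The C1s1 window held it at 1 place, 52 bases before the start. The Cd59a window held GAAANNGAAA at 187 bases before the start and none of the other motifs. Of 32851 promoter windows of the same length, 29.99% held TTNNGNAA at least at 1 place and 1.41% at 3 or more, and 2.27% held GAAANNGAAA. A match describes the letters and is not a measured binding site.

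In the alternative pathway, factor B supplies the protease of the C3 convertase and factor D activates it. Cfb had 4.59, 4.32 and 4.92 CPM in non-CSC against 9.51, 7.03 and 8.03 CPM in CSC, with no overlap. The log2 difference was 0.83 with a standard error of 0.105. Cfb lies beside C2 at chr17:34856374-34862518 (GRCm38, minus strand), and an annotated read-through gene, Gm20547, covers 79.5% of its exon bases and 42.8% of those of C2 on the same strand. How reads in the shared bases were assigned is likewise not stated, so the levels of both genes are uncertain. Per base of exon, Cfb had 0.192 ± 0.0256 times the counts of C2 in non-CSC and 0.476 ± 0.0884 times in CSC (SD, n = 3 each). Per base of exon, C3 had 4.84 ± 0.298 times the counts of Cfb in non-CSC and 19.1 ± 3.00 times in CSC (SD, n = 3 each).

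Cfd (chr10:79890853-79892655, GRCm38, plus strand), also known as adipsin and made abundantly by fat cells, had 4, 3 and 4 counts in non-CSC and 8, 9 and 8 in CSC. Summed over a group this was 0.108 CPM (95% Poisson interval 0.0541 to 0.194) in non-CSC and 0.295 CPM (0.191 to 0.435) in CSC. The intervals cover counting error only and they meet, so at this depth the size of the difference is poorly known. Cfp, which encodes properdin, the protein that holds the alternative convertase together, rose from 0.713 to 1.501 CPM (log2 difference 1.05, edgeR adjusted p = 0.000182).

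Among the soluble regulators, Cfi encodes the protease factor I. It had 53, 76 and 74 counts in non-CSC and 221, 226 and 240 in CSC, or 1.69, 2.19 and 2.09 CPM against 8.02, 7.99 and 8.27 CPM. All CSC values lay above all non-CSC values, with a log2 difference of 2.01 and a standard error of 0.108. Cfi lies on chromosome 3 (chr3:129835884-129875332, GRCm38, plus strand). The 30 fitted genes nearest to it had a median log2 difference of -0.22, with 15 lower and 7 higher at an adjusted p under 0.05, and 1 of them was above Cfi.

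Per base of exon, C3 had 8.91 ± 1.36 times the counts of Cfi in non-CSC and 14.99 ± 0.457 times in CSC (SD, n = 3 each). C4bp, chosen after its values were seen, encodes the cofactor for C4b and had 0, 1 and 0 counts in non-CSC and 9, 15 and 16 in CSC. Cpn1, the catalytic subunit of the carboxypeptidase that inactivates C3a and C5a, fell from 11.95 ± 0.431 to 1.22 ± 0.217 CPM (log2 difference -3.29, edgeR adjusted p = 3.85e-17), and its partner subunit gene Cpn2 had no count. Serping1, the gene of the inhibitor of C1r and C1s, had at most 3 counts in a library.

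Membrane regulators sit on the cell's own surface. Cd59a, which encodes the main mouse inhibitor of the pore, at chr2:104095801-104115354 (GRCm38, plus strand), had 8.06, 8.59 and 9.68 CPM in non-CSC and 8.78, 9.44 and 8.82 CPM in CSC. The groups overlapped, and the log2 difference was 0.04 with a standard error of 0.082. The sign of this difference turned without non-CSC replicate 1 (-0.03) and without CSC replicate 2 (-0.0029). Its copy Cd59b had at most 3 counts. Cd55 (chr1:130439027-130462744, GRCm38, minus strand) had 1 count in non-CSC replicate 1 and 0 in the other 5 libraries, where 3 counts would be 0.0849 to 0.109 CPM, so a lower level could not be seen. Cd55b had no count. Cr1l, the rodent membrane regulator also called Crry, which takes on tasks of CD55 and CD46 in mice, was at 47.4 CPM in non-CSC and 53.5 CPM in CSC. It rose by 0.17 on the log2 scale (edgeR adjusted p = 0.00461), although its groups overlapped. Cd46 rose from 1.34 to 2.27 CPM (log2 difference 0.76, edgeR adjusted p = 0.000104). Per base of exon, C3 had 1.64 ± 0.157 times the counts of Cd59a in non-CSC and 10.98 ± 0.329 times in CSC (SD, n = 3 each). Against Cr1l, C3 went from 1.72 ± 0.0874 to 10.6 ± 0.588 times.

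Levels of different genes were compared per kilobase of annotated exon. In CSC the order was C1s1 (79.6 CPM per kb), C3 (54.6), C1ra (17.7), Cd59a (4.98), Cfi (3.65), Cfb (2.90), C4b (0.433) and Cfd (0.320). In non-CSC it was C1s1 (28.7 CPM per kb), C3 (7.88), C1ra (7.36), Cd59a (4.85), Cfb (1.63), Cfi (0.897), C4b (0.284) and Cfd (0.118). Cfi and Cfb thus changed places. In non-CSC the libraries of C3, 7.82 to 7.96 CPM per kb, lay within those of C1ra, 6.70 to 8.22, so these neighbours in the order did not differ beyond their spread. In CSC each of the 8 genes with reads was apart from its neighbours in all libraries, although C4b (0.369 to 0.484) and Cfd (0.299 to 0.345) nearly met, as did Cfi (3.60 to 3.73) and Cfb (2.49 to 3.37). With the longest transcript as the length, neither group's order changed.

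**Figure D2:**
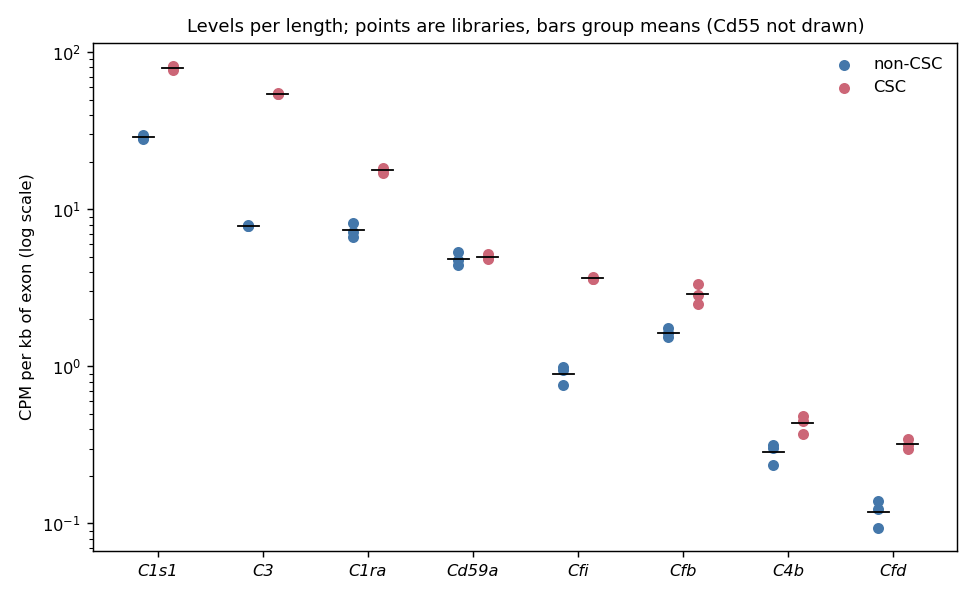
Level per kilobase of exon (vertical axis, log scale, CPM per kb) of the 8 complement genes with reads in every library, ordered by their CSC mean, with libraries as points and group means as bars. C1s1 is highest in both groups, C3 stands next to C1ra in non-CSC and well above it in CSC, and Cd59a is at about the same level in both.

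For the pathway as a whole, 45 further complement genes were listed, of which 20 had enough counts to be fitted. Of these 20, 12 rose, 5 fell and 3 did not pass (edgeR adjusted p under 0.05), with a median log2 difference of 0.53. Over all genes 66.5% passed, 33.4% higher and 33.1% lower, or 5894 against 5838 genes, which became 6781 against 4970 when only library totals were scaled for. The 9 genes above were chosen with values known and left out of the count of the 20, so its shares depend on that choice. The list was also drawn up with earlier results known. Among the 12, C4bp (0, 1 and 0 counts in non-CSC, 9, 15 and 16 in CSC) passed the count filter only with its CSC libraries. So did Cd93 (12, 16 and 5 against 26, 32 and 42). Genes passing in this way can enter only as higher in CSC. With a mean of at least 50 counts, 8 of 13 rose and 5 fell. By role, 3 of 5 classical pathway genes rose and 1 fell, 2 of 3 soluble regulators rose and 1 fell, both membrane regulators rose, and 3 of 5 receptors rose and 2 fell. The classical pathway genes that rose were C1rb, C1s2 and C1rl. C1rb and C1s2 are copies of C1ra and C1s1, which were left out, and may hold reads of those genes. In the lectin pathway Masp2, a C1s-like protease gene, rose by 0.64 on the log2 scale, although 54.9% of its exon bases are shared with Tardbp on the opposite strand. Fcna, a ficolin gene, fell by 0.40, a call lost without non-CSC replicate 1 (edgeR adjusted p = 0.0639) and without CSC replicate 3 (edgeR adjusted p = 0.0913). In the terminal pathway, C6, C8a and C8b had no count and C7 and C9 at most 2, while Hc, the gene of C5, was at 0.617 and 0.719 CPM and C8g at 1.27 and 1.14 CPM in non-CSC and CSC, and neither passed.

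**Figure D3:**
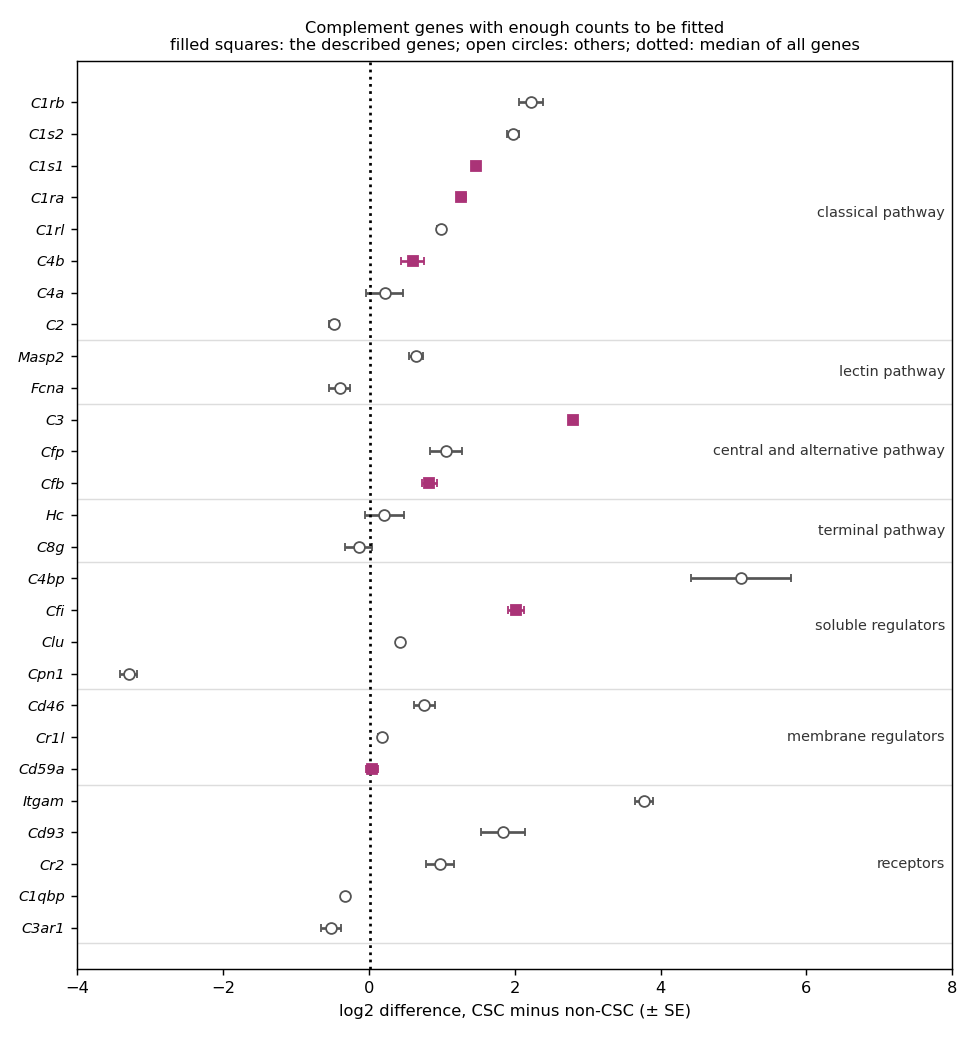
Log2 difference, CSC minus non-CSC, with its standard error (horizontal axis), of the 27 complement genes with enough counts, grouped by role, with the described genes as filled squares and the others as open circles. C3 and Cfi lie at 2.79 and 2.01, Cpn1 is farthest to the left at -3.29. C4bp is farthest to the right, with a fitted value that rests on a single non-CSC count.

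Receptors for complement fragments were mostly at low levels. Itgam, the alpha chain of complement receptor CR3, rose from 0.741 ± 0.118 to 10.2 ± 0.432 CPM (SD, n = 3 each; log2 difference 3.77, edgeR adjusted p = 1.61e-17), whereas Itgb2, the beta chain it pairs with, had 3 to 9 counts in every library. An annotated gene, Gm49368, covers 68.7% of the Itgam exon bases on the same strand, so its level is uncertain. C3ar1, the C3a receptor gene, fell by 0.53 on the log2 scale from 3.09 CPM (edgeR adjusted p = 0.00166). Cr2, which encodes the receptor for C3d, rose from 0.739 to 1.46 CPM. C5ar1 had at most 1 count. Itgam is also one of the macrophage and monocyte markers. Of these, 4 were fitted, 3 rose and 1 fell, beside 33.4% of all fitted genes higher and 33.1% lower. Cd14 rose from 20.7 to 30.5 CPM (log2 difference 0.56, edgeR adjusted p = 2.91e-09). Csf1r, the receptor gene for macrophage colony-stimulating factor, was at 1.82 to 1.88 CPM in non-CSC and 7.40 to 8.62 CPM in CSC. Cd68 fell from 25.4 to 17.8 CPM (log2 difference -0.51, edgeR adjusted p = 6.04e-08), and Lyz2, too low to be fitted, was at 0.273 and 0.0714 CPM. Cd163, outside the list and chosen after its values were seen, had 0 counts in non-CSC and 34 to 46 in CSC.

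Genes of the acute phase response, in which C3 and Cfb are known to take part, included 4 of 6 fitted that rose and none that fell, beside 33.4% of all genes higher and 33.1% lower. Of the 4, Lcn2 and Hpx passed the count filter only with their CSC libraries. Genes passing in this way can be called only as higher in CSC, so the count of the 4 depends on the filter. Hpx, the hemopexin gene, with 5 to 14 counts per library, is one of the 4. Its call was lost in 7 of 13 alternatives: with DESeq2, without the filter on low counts, and when any one library other than non-CSC replicate 3 was left out (adjusted p = 0.0585 to 0.172). With a mean of at least 50 counts it was not tested. Il1rn, another of the 6, did not pass with all 6 libraries (log2 difference -0.39, edgeR adjusted p = 0.123). It was called lower without non-CSC replicate 1 (-0.54, edgeR adjusted p = 0.0380) and without CSC replicate 3 (-0.64, edgeR adjusted p = 0.0265). Lbp, which encodes lipopolysaccharide-binding protein, was at 63.9 ± 3.16 CPM in non-CSC against 453 ± 7.01 CPM in CSC (SD, n = 3 each). Cp, the ceruloplasmin gene, was at 4.30 ± 0.447 against 44.4 ± 3.10 CPM. Lcn2 had 1 to 7 counts in non-CSC and 417 to 453 in CSC. The serum amyloid genes Saa1 and Saa2 and haptoglobin (Hp) were below 0.2 CPM in both group means. Among 33 cytokines, receptors and transcription factors known to act on complement genes, 29 were fitted, 11 rose, 11 fell, and the median log2 difference was 0.00. Of those that rose, Ifngr1, an interferon-gamma receptor gene whose groups overlapped, lost its call in 9 of the 13 alternatives (adjusted p = 0.0544 to 0.314), and Esr1, the estrogen receptor gene, in 2 of them, without non-CSC replicate 1 and without CSC replicate 3. Of those that fell, Nr1h4 lost its call with DESeq2 and Socs3 with library-size scaling. The C/EBP factor genes moved in opposite directions: Cebpd rose from 6.66 ± 0.392 to 29.0 ± 0.486 CPM, and Cebpb fell from 160 ± 8.78 to 81.0 ± 4.84 CPM (SD, n = 3 each), with Cebpa falling by 0.27 on the log2 scale. The interleukin receptor genes Il6ra and Il1r1 rose by 1.27 and 0.99 on the log2 scale, while Il6 itself was at 0.370 and 0.365 CPM in the group means and Il1b and Tnf were below 0.1 CPM. Other cytokine genes of the list differed. Il1a rose from 0.389 to 1.18 CPM (log2 difference 1.57, edgeR adjusted p = 9.09e-06). With 8, 14 and 18 counts in non-CSC against 35, 35 and 30 in CSC, Il1a passed the count filter only with its CSC libraries. It could therefore be called only as higher, and it is one of the 11 that rose. Lif fell from 49.5 to 39.9 CPM (log2 difference -0.31, edgeR adjusted p = 3.64e-06).

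By the distance between centred log2 CPM values over the 6 libraries, the genes with a pattern most like C3 were Lbp (distance 0.0984), Rasgrp3 (0.105), Rp1 (0.113), Arhgap40 (0.136) and Cdon (0.174). With only 2 groups, such a pattern is mainly the size of the group difference. Their log2 differences were 2.73 to 2.85, beside 2.79 for C3.

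Chromosome position was described for the fitted genes. C3 stood at 2.79 where the median of its 30 nearest fitted genes was 0.08, and Cfb at 0.83 where that of its neighbours was -0.04. Around C4b the median was -0.10 and around Cd59a 0.18. Of the neighbours, 1 was above C3, 1 above Cfb, 3 above C4b and 19 above Cd59a.

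**Figure D4:**
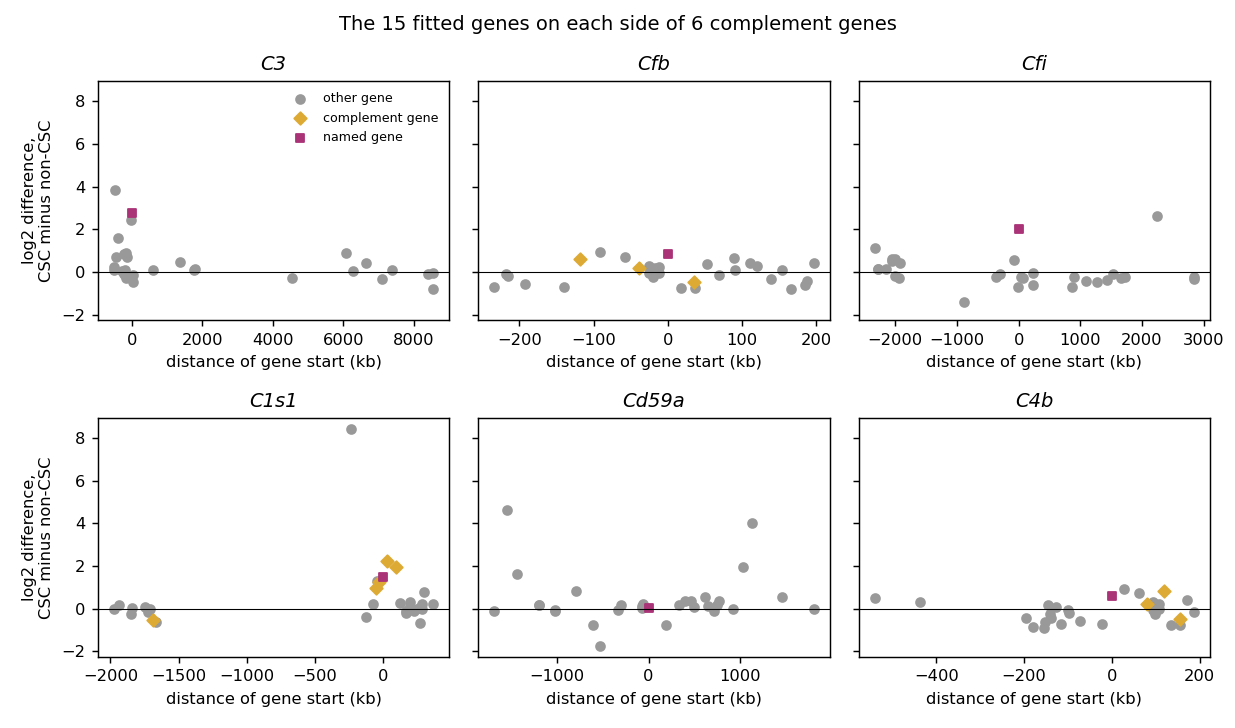
Log2 difference, CSC minus non-CSC (vertical axis), of the 15 fitted genes on each side of C3, Cfb, Cfi, C1s1, Cd59a and C4b, against the distance between gene starts in kb (horizontal axis, scale differs by panel), with other complement genes as yellow diamonds. C3 and Cfi stand above nearly all their neighbours, and in the C1s1 panel the related protease genes are high next to it.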

How the data were processed

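The values are the authors' deposited read counts by gene symbol, not normalized. The genome was GRCm38, per the submitters' processing notes, while aligner, counter, annotation and strand setting were not given in the sources used here. Per the labels' protocols, Trizol RNA went into NEBNext Ultra II libraries. Samples were grouped by title. Replicates differed by more than sampling noise (chi-square per degree of freedom 3.21 to 7.30), so all 6 libraries were kept.

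From the deposited counts, genes passing edgeR's filterByExpr were scaled with TMM and fitted with the edgeR 4.0.16 quasi-likelihood test (robust, no covariate), with Benjamini-Hochberg adjustment over all 17630 genes and a threshold of 0.05. The standard error is the log2 difference divided by the square root of F. CPM use TMM-scaled library sizes. The procedure was tested on simulated data. Exon lengths, overlaps and shared 50-base words came from GENCODE M21.

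The members and gene lists were chosen with earlier results of these data known. Named outside the members are their copies and the 10 other complement genes with the largest log2 difference past the threshold and a mean of at least 1 CPM. Up to 4 each came from the acute phase and inducer lists by the same rule at 5 CPM, beside the 5 genes nearest to C3. Further complement, marker, acute phase and inducer genes were chosen after their values were seen. T and B lymphocyte markers reached at most 0.483 CPM in sum and endothelial markers 0.797 CPM. Alternatives were RLE or library-size scaling, limma-voom, DESeq2, a filter at 1 count or a mean of 50 counts, a replicate block and leaving out each library. Some genes of the pathway are not reported here.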

Additional observations from a re-analysis of the deposited data

How the results depend on the processing

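Under 13 alternatives the log2 differences of C3 (2.77 to 2.86), Cfi (1.90 to 2.08), C1s1 (1.44 to 1.53), C1ra (1.19 to 1.35), Cfb (0.70 to 0.92) and C4b (0.48 to 0.70) kept their sign, whereas that of Cd59a ran from -0.031 to 0.105 when a library was left out and turned without non-CSC replicate 1 (-0.031) and without CSC replicate 2 (-0.0029); the cause was not tested. Of the other complement genes 17 of 20 fitted differed, 13 of 13 with a mean of at least 50 counts, 18 of 33 without the filter, and 16 to 17 of 20 in the other alternatives, and genes differing in all numbered 9859 to 12763. Fcna also lost its call with DESeq2 (adjusted p = 0.0911). Same-numbered replicates deviated with correlations of -0.0112, -0.0257 and -0.0216, so no shared deviation was seen. The labels do not state whether the numbers pair samples, and these correlations cannot decide it. With a replicate block 11680 genes and 17 other complement genes differed. The median log2 difference of all genes, 0.01, went to 0.08 with library-size scaling and to 0.09 without the filter. Depth limits Cd55, Cfd and C4b, whose counts were 0 to 76 per library.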
